A study of Mus musculus with 6 samples.

Results

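Oxidative phosphorylation is the process by which mitochondria turn electrons from nutrients into ATP, and its 5 enzyme complexes are described here through the mRNA of their nuclear-encoded subunits. Genes were taken by symbol: Nduf genes for complex I, Sdh genes for complex II, Uqcr genes for complex III, Cox4 to Cox8 genes for complex IV and Atp5 genes for complex V. Of the 52550 genes in the files, 89 had such a symbol, 6 of these were marked as pseudogenes, and 6 more had a mean normalized count under 10 over the 6 libraries. The 77 that remained, 36 of complex I, 4 of complex II, 8 of complex III, 12 of complex IV and 17 of complex V, were all among the 15265 genes tested. The symbols and the minimum did not use the difference between the groups, but the set was chosen with earlier results of these data known. The 6 genes under the minimum were Cox4i2, Cox8b, Cox8c, Cox7b2, Cox6b2 and Cox7a1, all of them isoforms of complex IV subunits with restricted expression, and none exceeded a normalized count of 11.6 in any library.

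Complexes I and II pass electrons from NADH and succinate to ubiquinone, complex III passes them on to cytochrome c, and complex IV hands them to oxygen. Complexes I, III and IV pump protons as they do so, and complex V, the ATP synthase, uses the returning protons to make ATP. All but complex II also hold subunits encoded by mitochondrial DNA, so these complexes are built from products of both nuclear and mitochondrial genes. Plasmacytoid dendritic cells, the main producers of type I interferon, are known to change their mitochondrial metabolism when activated.

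The cells were plasmacytoid dendritic cells from the spleen of C57BL/6 mice, and every library came from cells stimulated for 12 hours with R837 (imiquimod), a synthetic agonist of the endosomal RNA receptor TLR7. In 3 libraries taurine, an amino sulfonic acid abundant in immune cells, was added along with R837, and the other 3 had R837 alone. The comparison asks what taurine changes in TLR7-stimulated cells. The labels do not say whether the 3 libraries of a group come from different mice or different wells, so the p-values reflect variation between libraries, which may be technical. Unstimulated cells were not analysed here.

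Libraries held 33585080 to 38392654 reads on genes. All 20 markers of plasmacytoid dendritic cells were above 0, with summed normalized counts of 469977 to 484696 with taurine and 437024 to 475422 with R837 alone. At an adjusted p under 0.05 (limma), 3 of them were higher and 4 lower with taurine, where 3.75% and 2.66% of all tested genes were. The 3 higher were Bst2 (log2 change 0.38), Irf7 (0.65) and Cox6a2 (0.55), the last also a subunit gene described here. The 4 lower were Runx2 (-0.60), Tcf4 (-0.51), Pacsin1 (-0.38) and Klk1 (-0.35). The B cell list summed to at most 2472 with taurine and 2676 with R837 alone. The T cell list, in which Cd3d and Cd3g were listed at 0 and Cd8a gave most of the signal, summed to 71999 to 77385 with taurine and 83014 to 90143 with R837 alone. The conventional dendritic cell list summed to 19852 to 20639 with taurine and 22996 to 24040.1 with R837 alone, and the endothelial and stromal list, with Col1a1, Col1a2 and Col3a1 at 0, to 83011 to 89060 and 100147 to 119271. Monocyte and macrophage markers summed to 21755 to 26634 with taurine and 21535 to 22554 with R837 alone, neutrophil markers to 1717 to 2079 and 1172 to 1707, NK cell markers, with Gzma at 0, to 1052 to 1230.3 and 1245 to 1950.03, and erythroid markers to 162 to 239 and 86.6 to 126. Called genes of the other lists were Cd8a, Clec9a, Cdh5 and Kdr, lower with taurine, and Ngp and Hba-a1, higher with taurine. The part of these cell type differences in the results was not tested. In bulk RNA, fewer cells of a type and less RNA per cell cannot be told apart.

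Most subunit genes had slightly more mRNA with taurine, and 5 of the 77 rose while none fell at an adjusted p under 0.05 (limma, Benjamini-Hochberg over all tested genes). The 5 were Ndufb7 of complex I, Uqcrq of complex III, Cox4i1 and Cox6a2 of complex IV and Atp5o of complex V. Among all tested genes, 6.41% passed the threshold, 3.75% higher and 2.66% lower, and the members' share of 6.49% is close to the first of these. By direction alone, 69 of 77 had a log2 change above 0, or 89.6%, against 48.6% of all tested genes. In 42 members, or 54.5%, all taurine libraries exceeded all R837 libraries, against 14.6% of tested genes, and in no member was the reverse seen, against 15.0%. At an unadjusted p under 0.05, 33 members were higher and 0 lower, where 11.6% and 12.2% of tested genes were.

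The changes were small. The median log2 change of the members was 0.23, with quartiles of 0.11 and 0.35 and a range of -0.19 to 0.67, while the median of all tested genes was -0.01. Summed over the 77 genes, the normalized count was 179330, 180308 and 190955 in the taurine libraries and 163697, 158336 and 159921 in the R837 libraries, so the groups did not overlap and the means stood in a ratio of 1.14. The same sum over all tested genes stood in a ratio of 1.03. Of the 77 genes, 61, 57 and 64 lay above their own mean over the 6 libraries in taurine replicates 1, 2 and 3, and 22, 16 and 18 did so in R837 replicates 1, 2 and 3. The median deviation was above 0 in every taurine library and below 0 in every R837 library, widest in taurine replicate 3 (median deviation 0.19 on the log2 scale) and R837 replicate 2 (-0.14).

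**Figure D1:**
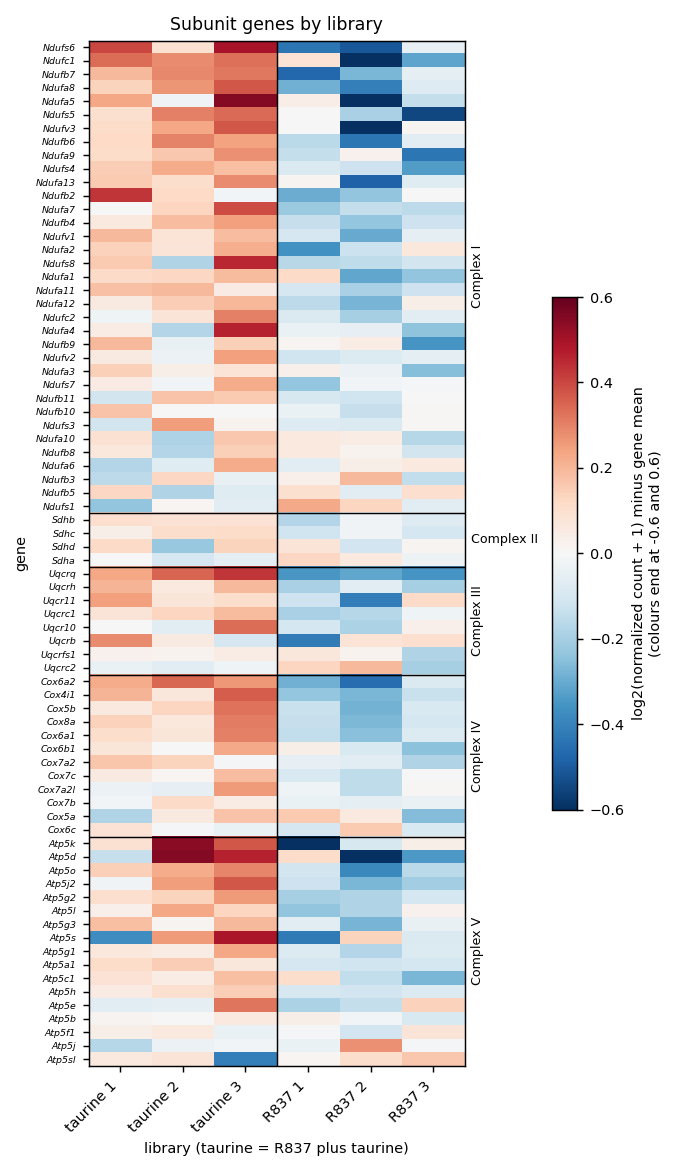
Deviation of each of 76 subunit genes (rows, ordered within each complex by log2 change) from its own mean on the log2(normalized count + 1) scale, in the 3 R837 plus taurine libraries (left) and the 3 R837 libraries (right). Red is above and blue below the gene's mean; 60, 56 and 63 of these genes are above it in the taurine libraries and 22, 16 and 18 in the R837 libraries.

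Gene length moved with the groups as well. Across genes, the deviation from the gene mean correlated with exon length (Spearman) at -0.10, -0.13 and -0.20 in taurine replicates 1 to 3 and 0.11, 0.15 and 0.04 in R837 replicates 1 to 3, and with GC content at -0.04, 0.06 and 0.23 in the taurine and -0.06, -0.16 and -0.07 in the R837 libraries. Subunit genes are short, with a median exon length of 1718 bases against 3707 bases for all tested genes, and 55 of them lie in the 3 shortest of 10 length classes of about equal size, where the median log2 change of all genes was 0.13, 0.12 and 0.08. After each library's trends on length and GC content were removed, the members' median was 0.19, 67 were above 0, and 6 rose and 0 fell, where 6.27% of the genes tested that way passed. The same 5 genes and Uqcrh passed. With edgeR on the recovered reads, the 5 genes and Atp5a1 passed, against 6.22% of tested genes.

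**Figure D2:**
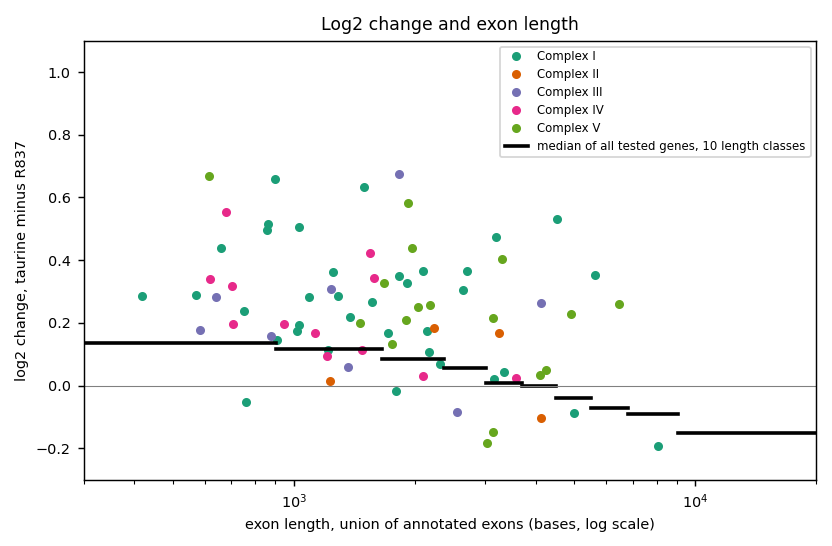
Log2 change with taurine (vertical axis) against exon length in bases on a log scale (horizontal axis) for the 77 subunit genes, coloured by complex; black bars are medians of all tested genes in 10 classes of exon length, drawn to the axis limits at both ends. The bars step down from 0.13 in the shortest class to -0.15 in the longest, and 69 of the 77 points are above 0.

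Leaving out 1 library changed the number of calls among the members and among all tested genes alike, from 979 of all genes with every library to 326 and 134 without R837 replicates 1 and 2, 318, 250 and 153 without taurine replicates 1, 2 and 3, and 1477 without R837 replicate 3. Uqcrq passed in all 6 fits that left out 1 library, Cox4i1 in 2, and Cox6a2, Atp5o and Ndufb7 in 1 each. Uqcrq alone passed without R837 replicate 1, R837 replicate 2, taurine replicate 1 or taurine replicate 3, Uqcrq and Cox4i1 passed without taurine replicate 2, and 11 members passed without R837 replicate 3. With the replicate number as a block, Cox4i1 and Uqcrq passed.

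Complex I, the NADH dehydrogenase, had 32 of its 36 measured genes above 0 and a median log2 change of 0.28, with 1 gene called higher and none lower. Ndufb7 (ENSMUSG00000033938.5, chromosome 8, 83566671 to 83571626, plus strand, mm10), an accessory subunit on the intermembrane side of the membrane arm, had normalized counts of 1087, 1158 and 1180.4 in the taurine libraries and 685, 784 and 914 in the R837 libraries. The 3 taurine libraries were close together and all above the R837 libraries, among which replicate 3 was the highest. Its log2 change was 0.53 ± 0.13 (SE, 3 libraries per group), and the adjusted p from limma was 0.0428.

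Promoters of the subunit genes were looked at because many are known to be controlled by NRF1, whose gene is one of the regulators listed further on, and YY1. RefSeq windows (GRCm38.p6) of 250 bases before to 50 after the transcription start were at hand for 65 of the 77 genes. The NRF1 core GCGCANGCG, searched on both strands, stood in 29.6% of the members' windows against 6.25% of all 32851 windows, the YY1 core AAGATGGCG in 12.7% against 1.40%, the ETS core CCGGAAGT in 7.04% against 3.89% and the ERR half-site AAGGTCA in 11.3% against 4.72%. The 20 members with an NRF1 core had a median log2 change of 0.28, 18 of them above 0, and the 45 with a window and no core had a median of 0.20, 41 of them above 0; Atp5o is the called gene in the first set and Ndufb7 in the second, while the calls Uqcrq, Cox4i1 and Cox6a2 are in neither. A match is a run of letters, not a measured binding site. The windows of 4 genes are printed in lower case and 5′ to 3′ on the gene's strand, with matches to the NRF1 and YY1 cores or their reverse complement in capitals. They show a called gene with a core, a called gene with none, the gene of complex I with the widest log2 change, and the complex II gene that did not share the direction of the rest, whose window holds 3 NRF1 cores.
Atp5o, chr16:91931581-91931880, minus strand: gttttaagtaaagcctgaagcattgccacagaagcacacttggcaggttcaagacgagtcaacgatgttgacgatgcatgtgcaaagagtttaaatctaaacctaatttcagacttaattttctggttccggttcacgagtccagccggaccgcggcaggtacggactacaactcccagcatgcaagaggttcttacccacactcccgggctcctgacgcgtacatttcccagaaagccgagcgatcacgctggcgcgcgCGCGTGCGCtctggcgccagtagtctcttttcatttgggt
Ndufb7, chr8:83566508-83566807, plus strand: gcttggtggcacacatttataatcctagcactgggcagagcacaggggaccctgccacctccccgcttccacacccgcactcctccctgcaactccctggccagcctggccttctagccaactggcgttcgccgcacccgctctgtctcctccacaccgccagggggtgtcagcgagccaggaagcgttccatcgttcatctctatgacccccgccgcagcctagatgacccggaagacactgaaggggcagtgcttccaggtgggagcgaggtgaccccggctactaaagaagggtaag
Ndufs6, chr13:73328433-73328732, minus strand: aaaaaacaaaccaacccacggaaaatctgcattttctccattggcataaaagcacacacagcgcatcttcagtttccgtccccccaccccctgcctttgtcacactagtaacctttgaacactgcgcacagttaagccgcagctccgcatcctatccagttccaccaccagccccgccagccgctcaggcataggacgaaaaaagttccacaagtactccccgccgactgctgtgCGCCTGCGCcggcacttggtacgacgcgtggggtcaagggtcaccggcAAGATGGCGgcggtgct
Sdha, chr13:74350191-74350490, minus strand: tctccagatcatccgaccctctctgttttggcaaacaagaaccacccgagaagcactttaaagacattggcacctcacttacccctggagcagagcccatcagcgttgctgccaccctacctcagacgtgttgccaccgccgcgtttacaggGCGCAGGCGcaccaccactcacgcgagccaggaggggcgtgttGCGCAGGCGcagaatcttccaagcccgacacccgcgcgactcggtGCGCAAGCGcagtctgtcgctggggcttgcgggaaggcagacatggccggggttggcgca

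The 7 measured core subunits of complex I, which hold its flavin and iron-sulfur centres, had a median log2 change of 0.17, or 0.06 with length and GC trends removed, 6 of them above 0 and 0 called. The 29 accessory subunits, which stabilise the enzyme and aid its assembly, had a median of 0.29, or 0.23 with these trends removed, 26 of them above 0 and 1 called. Ndufs6, a zinc-binding accessory subunit, had 420.0, 339 and 448 with taurine and 235, 223 and 307 with R837 alone. Its groups did not overlap and its log2 change of 0.66 ± 0.18 was the widest in the complex, but the adjusted p was 0.0654, and its exons overlap those of Mrpl36, with whose reads added the log2 change was 0.18. Ndufa8, an accessory subunit of the intermembrane side like Ndufb7, had 706, 772 and 832 with taurine and 526, 483 and 608 with R837 alone. Those groups did not overlap either, with a log2 change of 0.52 ± 0.13 and an adjusted p of 0.0522, just outside the threshold. With length and GC trends removed, Ndufa8 was at 0.39 with an adjusted p of 0.0802 (limma).

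Ndufv1, the core subunit that binds NADH and the flavin, had 858, 795 and 853 with taurine and 699, 609 and 723 with R837 alone, a log2 change of 0.31 ± 0.11 without overlap and with an adjusted p of 0.143. Ndufs1, the largest core subunit and a carrier of iron-sulfur clusters, had 1198, 1423 and 1347.02 with taurine and 1652, 1542 and 1347.2 with R837 alone. Its groups overlapped, and its log2 change of -0.19 ± 0.11 (adjusted p = 0.344) was the lowest of the 77; with the reads of genes that overlap its exons, Eef1b2 among them, added, it was 0.05, and with length and GC trends removed it was -0.04. Ndufa4, named for complex I but now counted with complex IV, had 1270.1, 1089.9 and 1698 with taurine and 1197, 1192 and 1042 with R837 alone, with overlap and an adjusted p of 0.445. By its symbol it is among the 29 accessory subunits and the 36 genes of complex I here. With Ndufa4 moved to complex IV, the median log2 change was 0.286 for complex I and 0.198 for complex IV. The other complex I genes below 0 were Ndufb5 (log2 change -0.09), Ndufb3 (-0.05) and Ndufa6 (-0.02), with adjusted p-values of 0.720, 0.854 and 0.953.

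**Figure D3:**
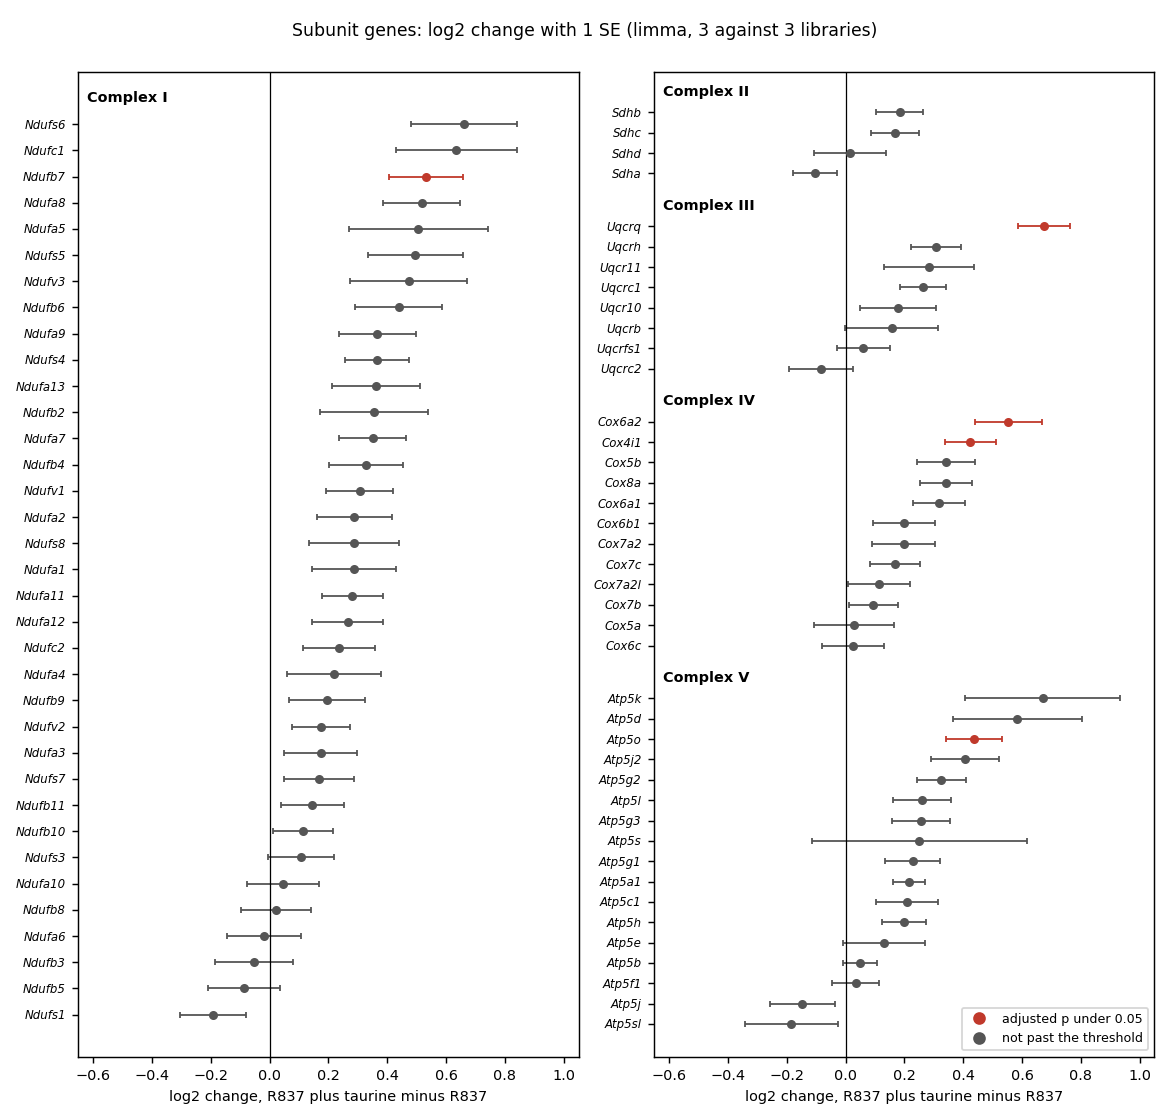
Log2 change of 76 subunit genes, R837 plus taurine minus R837, with 1 SE from limma, complex I on the left and complexes II to V on the right. Red points are the 5 genes with an adjusted p under 0.05; 68 of the 76 points are right of 0.

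Complex II, succinate dehydrogenase, also serves the citric acid cycle and is encoded by the nucleus alone. Of its 4 genes, 3 were above 0, the median log2 change was 0.09, or 0.05 with length and GC trends removed, and none was called. Sdhb, the iron-sulfur subunit, had 2594, 2569 and 2567 with taurine and 2139.8, 2383 and 2288 with R837 alone, a log2 change of 0.18 ± 0.08 with an adjusted p of 0.206, or 0.12 with these trends removed. Sdhc, a membrane anchor, had 1921, 2018 and 2019 with taurine and 1722, 1844 and 1739 with R837 alone, a log2 change of 0.17 ± 0.08 with an adjusted p of 0.258. In both genes every taurine library was above every R837 library. Sdha, the flavoprotein that oxidises succinate, had 4868, 4552 and 4709.8 with taurine and 5324, 5090.3 and 4783 with R837 alone, with overlap, a log2 change of -0.10 ± 0.07 and an adjusted p of 0.434. Sdhd, the other anchor, had 1503, 1184 and 1523 with taurine and 1463, 1279 and 1406 with R837 alone, a log2 change of 0.01 ± 0.12 (adjusted p = 0.963) whose sign turned under several alternatives. Summed over the 4 genes, the normalized count averaged 10676 ± 308 with taurine and 10487 ± 237 with R837 alone (SD, n = 3 each), a ratio of 1.02.

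Complex III, the cytochrome bc1 complex, held the member with the smallest p. Uqcrq (ENSMUSG00000044894.14, chromosome 11, 53427922 to 53430831, minus strand), a small subunit next to cytochrome b, had 2175, 2354 and 2489 with taurine and 1452, 1491 and 1447 with R837 alone. The R837 libraries lay within a narrow band and every taurine library was far above it. The log2 change was 0.67 ± 0.09 and the adjusted p 0.00675, it stayed between 0.63 and 0.73 when any 1 library was left out, and its exons overlap no other gene and have no near-identical copy. Of the 8 genes, 7 were above 0, 3 had groups that did not overlap, and the median log2 change was 0.22, or 0.13 with length and GC trends removed.

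The other subunits of complex III did not match Uqcrq in size. Uqcrh, the hinge subunit that contacts cytochrome c1, had 2824, 2552 and 2804 with taurine and 2142, 2334 and 2129 with R837 alone, a log2 change of 0.31 ± 0.09 with an adjusted p of 0.0673. Uqcrc1, a core protein of the matrix side, had 4450.3, 4619 and 4809.6 with taurine and 3682, 3746 and 4146 with R837 alone, a log2 change of 0.26 ± 0.08 with an adjusted p of 0.0816. Neither gene's groups overlapped. Uqcrc2, the partner of Uqcrc1 in the core, had 3373, 3319 and 3407 with taurine and 3788, 3969.8 and 3015 with R837 alone, a log2 change of -0.08 ± 0.11 (adjusted p = 0.693). Uqcrfs1, the Rieske iron-sulfur protein, had 2309, 2299.7 and 2337 with taurine and 2376, 2301 and 2002 with R837 alone, a log2 change of 0.06 ± 0.09 (adjusted p = 0.737). In both of these genes R837 replicate 3 was the lowest library. The log2 ratio of Uqcrq to Uqcrc2, a pair chosen after its values were seen, was -0.63, -0.50 and -0.45 with taurine and -1.38, -1.41 and -1.06 with R837 alone.

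Complex IV, cytochrome c oxidase, had all 12 genes above 0, a median log2 change of 0.20, or 0.12 with length and GC trends removed, and 2 calls. Its summed normalized count averaged 36525 ± 2676 with taurine and 30048 ± 962 with R837 alone (SD, n = 3 each), a ratio of 1.22. Cox4i1 (ENSMUSG00000031818.12, chromosome 8, 120668222 to 120674207, plus strand), the common isoform of a subunit through which ATP inhibits the enzyme, had 9324, 8486 and 10391 with taurine and 6894, 6691 and 7375 with R837 alone. The lowest taurine library was above the highest R837 library, with a log2 change of 0.42 ± 0.09 and an adjusted p of 0.0273. With length and GC trends removed, the log2 change was 0.30 and the adjusted p 0.0496 (limma). Its exons overlap those of Emc8, and with those reads added, 20.4% of the sum, the log2 change was 0.33.

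Cox6a2 (ENSMUSG00000030785.8, chromosome 7, 128205435 to 128206387, minus strand), an isoform best known from heart and skeletal muscle that is also in the list of plasmacytoid dendritic cell markers, had 1552, 1691 and 1596 with taurine and 1091, 969 and 1254 with R837 alone. The groups did not overlap, the log2 change was 0.55 ± 0.11 and the adjusted p 0.0280. With length and GC trends removed, the log2 change was 0.45 and the adjusted p 0.0388 (limma). Its exons overlap those of Itgad, and the log2 change was 0.50 with those reads added. Cox6a1, the isoform found in most tissues, had 4175, 4077 and 4782 with taurine and 3500.3, 3266 and 3672 with R837 alone, a log2 change of 0.32 ± 0.09 with an adjusted p of 0.0696. Both isoforms were thus higher in every taurine library, and with length and GC trends removed Cox6a1 was at 0.18. Per kilobase of the principal transcript, Cox6a2 made up 23.8%, 25.8% and 21.9% of the pair with taurine and 20.7%, 19.9% and 22.3% with R837 alone, so the groups overlapped in the share.

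Cox8a, a small membrane subunit, had 4429, 4213 and 4987 with taurine and 3662, 3340.2 and 3741 with R837 alone, a log2 change of 0.34 ± 0.09 with an adjusted p of 0.0586, or 0.19 with length and GC trends removed. Cox7a2, the common isoform of its subunit, had 836, 817 and 741 with taurine and 718, 711 and 657 with R837 alone, a log2 change of 0.20 ± 0.11 with an adjusted p of 0.313, or 0.11 with these trends removed. Neither gene's groups overlapped. Cox7a2l had 2416, 2389 and 2952 with taurine and 2429, 2225 and 2486 with R837 alone, a log2 change of 0.11 ± 0.10 (adjusted p = 0.557). Cox5a, which sits on the matrix side beside Cox4i1, had 1627, 1918 and 2080.5 with taurine and 2057, 1926 and 1542 with R837 alone, a log2 change of 0.03 ± 0.14 (adjusted p = 0.928). Both genes' groups overlapped, and the sign of Cox5a turned when either R837 replicate 3 or taurine replicate 3 was left out. Cox6c had a log2 change of 0.03 that became -0.34 with the reads of the overlapping gene Vps13b added.

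**Figure D4:**
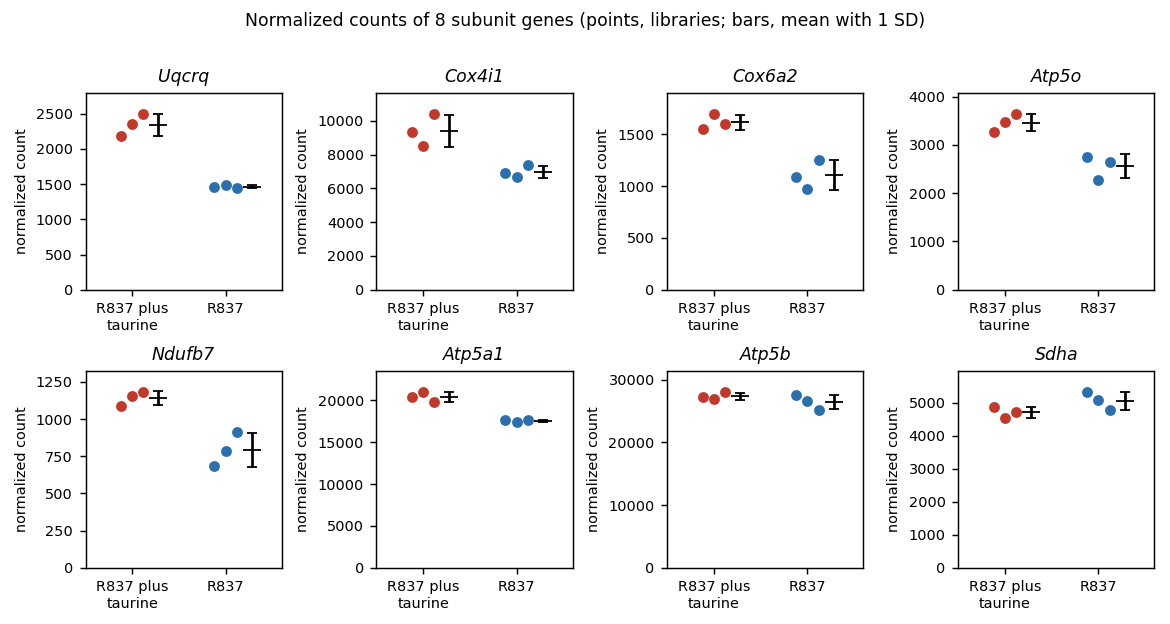
Normalized counts of 8 subunit genes in each R837 plus taurine library (red, left) and each R837 library (blue, right), with the mean and 1 SD (n = 3) in black; vertical axes start at 0. The 5 called genes (Uqcrq, Cox4i1, Cox6a2, Atp5o, Ndufb7) and Atp5a1 do not overlap between groups, while Atp5b and Sdha do.

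Complex V, the ATP synthase, had 15 of 17 genes above 0, a median log2 change of 0.23 and 1 call. Atp5o (ENSMUSG00000022956.10, chromosome 16, 91684398 to 91931687, minus strand) encodes the oligomycin sensitivity conferring protein, which ties the stationary stalk to the catalytic head. It had 3278, 3466 and 3635 with taurine and 2755, 2272 and 2655 with R837 alone, with no overlap, a log2 change of 0.44 ± 0.10 and an adjusted p of 0.0341. Of the other stalk genes, Atp5h had a log2 change of 0.20, Atp5f1 one of 0.03 and Atp5j one of -0.15, with adjusted p-values of 0.147, 0.840 and 0.460, none past the threshold.

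In the catalytic head, both main subunits were measured with little spread. Atp5a1, the alpha subunit, had 20428, 20969.9 and 19854 with taurine and 17637, 17456 and 17613 with R837 alone, and its within-group SD of 0.03 on the log2 scale was the smallest of the members, whose median was 0.13 against 0.21 for all tested genes. Its groups lay well apart relative to that spread, and the log2 change was 0.22 ± 0.06 with an adjusted p of 0.0536. Atp5b, the catalytic beta subunit that pairs with alpha in equal number, had 27206, 26853 and 27989 with taurine and 27506, 26605 and 25235 with R837 alone, with overlap and a log2 change of 0.05 ± 0.06 (adjusted p = 0.659). With length and GC trends removed, Atp5a1 was at 0.16 and Atp5b at 0.06, with adjusted p-values of 0.108 and 0.493 (limma). The log2 ratio of Atp5a1 to Atp5b, a pair chosen after its values were seen, was -0.41, -0.36 and -0.50 with taurine and -0.64, -0.61 and -0.52 with R837 alone. Atp5d, the delta subunit of the central stalk, had a log2 change of 0.58 but an SE of 0.22, with 2593, 4181 and 3931 with taurine and 3080.5, 1826 and 2249 with R837 alone, so the groups overlapped.

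The c-ring that turns in the membrane is made from 1 protein encoded by Atp5g1, Atp5g2 and Atp5g3, which differ in the part removed on import. Atp5g1 had 1468, 1453 and 1653 with taurine and 1327, 1247 and 1326 with R837 alone, a log2 change of 0.23 ± 0.09 with an adjusted p of 0.188. Atp5g2 had 2753, 2813 and 3061 with taurine and 2233, 2261 and 2382 with R837 alone, a log2 change of 0.33 ± 0.08 with an adjusted p of 0.0510. Atp5g3 had 2418, 2159.8 and 2444 with taurine and 2043, 1763.5 and 2071 with R837 alone, a log2 change of 0.26 ± 0.10 with an adjusted p of 0.154. With length and GC trends removed, Atp5g1, Atp5g2 and Atp5g3 were at 0.33, 0.22 and 0.26. None of the 3 had overlapping groups and none passed the test. The same held for Atp5j2, Atp5k and Atp5l, membrane subunits involved in pairing ATP synthases, whose median log2 change was 0.40; a copy in Senp6 shares sequence with Atp5l, and with those reads added Atp5l was at -0.20. Atp5s and Atp5sl, at 0.25 and -0.18, have symbols of this family but are not subunits of the enzyme. Both were counted among the 17 and the 77 by their symbols, and without them the median of complex V was 0.23.

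Of the 77 genes, 38 either shared exons with another gene or had a copy of at least 95% identity over at least 200 bases in another transcript, and since the strand setting of the counting is not given in the sources used here, their reads are uncertain. The other 39 had a median log2 change of 0.25, with 36 above 0 and 2 called, Ndufb7 and Uqcrq. With the reads of copies and overlapping genes added, the median of all 77 was 0.20, 67 were above 0, and 4 genes changed sign: Ndufb2, Ndufs1, Cox6c and Atp5l.

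The genes that build and serve the complexes did not share the members' direction throughout. Of 54 tested assembly factors, 0 were called in either direction, where 6.41% of all tested genes were. In complex order their medians were -0.13 (17 genes), -0.09 (4), -0.16 (6), 0.19 (24) and -0.06 (3). With length and GC trends removed the medians were -0.11, -0.02, -0.04, 0.20 and -0.13. Only the complex IV factors were mostly above 0, with 21 of 24, or 18 with these trends removed. Cmc2, a small factor needed for complex IV assembly, had 283, 306 and 408 with taurine and 144, 248 and 154 with R837 alone, without overlap, a log2 change of 0.89 ± 0.24 and an adjusted p of 0.0660; Cox19 was at 0.64 (adjusted p = 0.122). Foxred1, a complex I factor, had 1222, 1269.8 and 1142 with taurine and 1509, 1573 and 1504 with R837 alone, a log2 change of -0.34 ± 0.09 without overlap and with an adjusted p of 0.0627; Ndufaf8 was at 0.33 (adjusted p = 0.268). The smallest p-values of the other assembly lists belonged to Sdhaf3 and Sdhaf2 of complex II, at -0.46 and -0.08 with adjusted p-values of 0.642 and 0.726, to Uqcc2 and Uqcc3 of complex III, at 0.54 and 0.43 with 0.0880 and 0.174, and to Atpaf1 and Atpaf2 of complex V, at -0.32 and 0.05 with 0.414 and 0.887.

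Electron carriers, ubiquinone synthesis and subunits outside the symbol rule had a median of 0.17 over 21 tested genes, with 17 above 0 and 0 called. Usmg5, a small subunit of ATP synthase, had 1037, 988 and 1211 with taurine and 774, 728 and 858 with R837 alone, a log2 change of 0.45 ± 0.12 without overlap and with an adjusted p of 0.0605. Coq7, which acts late in ubiquinone synthesis, was at 0.73 ± 0.24 with an adjusted p of 0.106. Both were higher in every taurine library.

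Among 19 regulators of nuclear and mitochondrial gene expression, 0 rose and 2 fell. That is 10.5% called, against 6.41% of all tested genes. The list's median log2 change was -0.19, or -0.13 with length and GC trends removed, and its median exon length was 4685 bases. Pprc1, a coactivator of the PGC-1 family that works with NRF1, had 1826, 1042 and 1509 with taurine and 2587, 2346 and 2301 with R837 alone, a log2 change of -0.76 ± 0.18 with an adjusted p of 0.0450. Lrpprc, which stabilises mitochondrial mRNAs, had 923, 879 and 868 with taurine and 1205, 1353 and 1097 with R837 alone, a log2 change of -0.45 ± 0.11 with an adjusted p of 0.0470. In both genes every taurine library lay below every R837 library. Each passed in only 1 of the 6 fits that left out 1 library, Pprc1 without taurine replicate 1 and Lrpprc without R837 replicate 3, with adjusted p-values of up to 0.133 and 0.166 in the others. Pprc1 did not pass with edgeR (adjusted p = 0.0564), and Lrpprc was at -0.30 (adjusted p = 0.0924) with length and GC trends removed. Nrf1 itself had a log2 change of 0.18 and Yy1 one of -0.21, with adjusted p-values of 0.322 and 0.167, neither past the threshold.

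**Figure D5:**
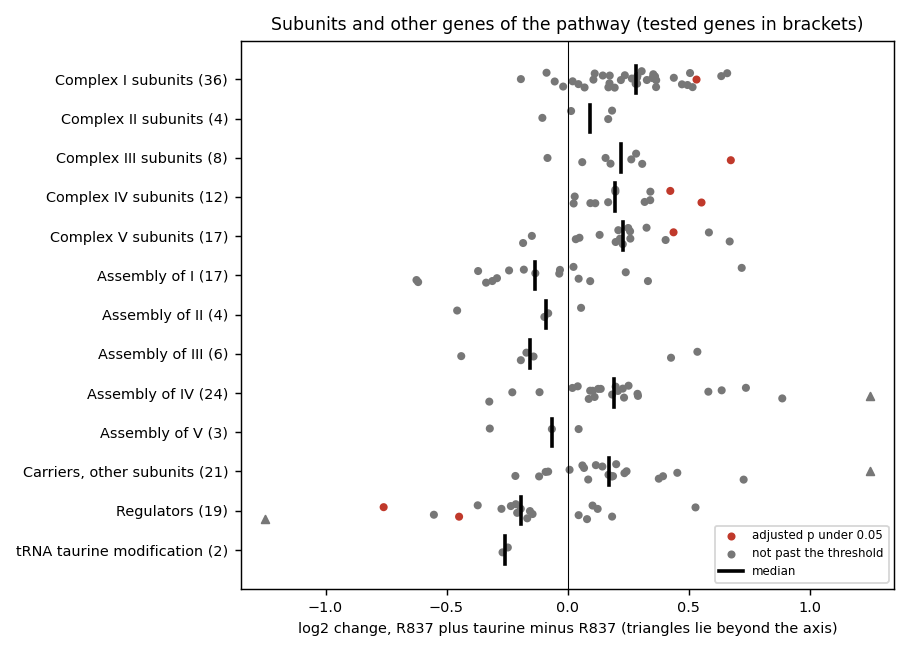
Log2 change with taurine (horizontal axis) of the subunit genes by complex and of the other genes of the pathway by list, 1 point per tested gene, with list sizes in brackets, medians as black bars and called genes in red. Medians of the subunit lists lie between 0.09 and 0.28, those of the assembly lists between -0.16 and 0.19, and the 2 called regulators, Pprc1 and Lrpprc, are left of 0.

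The mitochondrially encoded partners of these subunits could not be compared, since all 37 mitochondrial genes, the 13 protein-coding ones included, were listed at 0 in every library. Taurine is itself part of a modified base in several mitochondrial tRNAs, put in place by the enzymes Mto1 and Gtpbp3. Mto1 had 339, 377 and 435 with taurine and 453, 444 and 463 with R837 alone, and Gtpbp3 had 319, 283 and 323 with taurine and 403, 291 and 435 with R837 alone. The log2 changes were -0.25 ± 0.14 and -0.27 ± 0.18, with adjusted p-values of 0.319 and 0.406. The groups were apart for Mto1 and overlapped for Gtpbp3.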

How the data were processed

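Trizol-extracted RNA was turned into libraries with a VAHTS mRNA-seq v2 kit, per the labels' protocols. Per the file headers, the deposited signal is a normalized count per gene. In each library 100% of values were multiples of a single step, with a tolerance of 0.001 of that step. The authors' values thus equal whole numbers multiplied by 1 factor per library, between 0.943 and 1.06. These whole numbers were taken as reads, which was not tested. The submitters' processing notes list HISAT2, StringTie, mm8 and mm10 without roles; the sources used here name no counting tool or strand setting. Of 52403 identifiers shared with GENCODE M21, 95.2% had identical coordinates, so coordinates are given as mm10.

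Genes that reached a normalized count of 10 in 3 or more libraries were tested on log2(value + 1), a scale that understates changes of low genes, with limma 3.58.1 in R 4.3.3 (1 group term, moderated variance with abundance trend, two-sided, Benjamini-Hochberg over all tested genes). FPKM had been assumed when the design was set, and this replaced it. A test of 3 against 3 libraries by permutation of a single value cannot go below p = 0.1, so none was used. edgeR 4.0.16 and DESeq2 1.42.0 on the recovered reads, other filters, pseudocounts and scalings, removal of length and GC trends (mgcv 1.9.3), a replicate block and leaving out each library were alternatives. The procedure was tested on simulated data. No 2 libraries of the same group agreed within sampling noise. The replicate numbers showed no sign of pairing: same-numbered deviations correlated at -0.0026, -0.0068 and -0.043. Differently numbered libraries were not compared, so these values do not settle whether the libraries were paired.

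Members, pathway lists and cell type markers were chosen with earlier results of these data known. Genes named are all called members, the 3 smallest p-values per complex, a set list of central subunits, and, of each pathway list, called genes and the 2 smallest p-values; further members are named for context after their values were seen. Copies were found with blastn 2.17.0 among GENCODE M21 transcripts. Promoter windows came from RefSeq (GRCm38.p6), with all 77 genes matched and 65 holding a window. Values of 1 member are not reported here by name, and it is not drawn where genes are labelled.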

Additional observations from a re-analysis of the deposited data

How the results depend on the processing

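Over all alternatives no member was called lower, and the median of the 77 members stayed between 0.19 and 0.26. The count of 5 members called higher was 2 with no filter on low values (2.34% of all genes called, against 6.41%), 9 with a stricter filter (9.87%), 19 with DESeq2 (12.5%), 3 among genes without exon overlap (7.41%), and 0 with limma without the abundance trend, where 25 members were higher at an unadjusted p under 0.05 and only 4 of all genes passed; edgeR called 6. With the replicate block it was 2 (4.03%), and with the replicate block and trends removed 1 (4.02%). Whether the numbers pair the libraries is not known. Leaving out 1 library at a time gave 1 to 11 (0.878% to 9.68%). Median log2 changes with length and GC trends removed, with or without the block, were 0.205 for complex I, 0.0533 for complex II, 0.125 for complex III and 0.120 for complex IV; complex II was at 0.0572 with rescaled totals, and complex III at 0.273 among genes without exon overlap. Leaving out 1 library gave 0.230 to 0.306 for complex I, 0.0532 to 0.144 for complex II and 0.192 to 0.266 for complex III. Signs turned for Sdhd with totals rescaled without the 50 most abundant genes (-0.0194), with trends removed (-0.0117) and without single libraries (-0.0492 to 0.132, with -0.0405 and -0.0397 between), Uqcrfs1 without R837 replicate 3 (-0.0140, and up to 0.109 without others), Cox5a with rescaled totals (-0.0044) and without R837 replicate 3 (-0.0933) or taurine replicate 3 (-0.0491, and up to 0.128 without others), and Atp5b with quantile normalization (-0.0619). So did those of the assembly genes Atpaf2 (-0.0105 with trends removed, -0.0407 to 0.147 without single libraries) and Sdhaf2 (0.0467 with trends removed, -0.156 to 0.0156 without single libraries); the cause was not tested. Rescaled totals gave 462 genes higher and 586 lower over all tested genes, against 573 and 406. Over the named genes, 760 alternative values kept direction and side of the threshold, 32 came to pass, 56 no longer passed and 18 changed sign. The pseudocount and the depth of 33585080 to 38392654 reads limit genes such as Atp5s most.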
